A study of Rattus norvegicus with 18 samples.

Results

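Bcl7b, Nt5dc1, Sdf4, Rtl8a, Poldip2, Smim29 and Hm13 are genes for which the study lists a conserved open reading frame (ORF) that the rat annotation lacks. Their RNA isoforms were taken from that list and looked up by identifier in the deposited tables of isoform levels. The rule gave 9 isoforms of 7 genes, out of 27 isoforms of 19 genes on the whole list and 28268 full-length transcripts (FLTs) in the tables, and all 9 were present in each of the 3 tables. The unannotated ORF lies in the 5′ untranslated region (UTR) in 5 isoforms (those of Sdf4, Bcl7b, Rtl8a and both of Nt5dc1), in an intron in 1 isoform (Hm13), and in another reading frame than the annotated protein in 3 isoforms (both of Poldip2, and Smim29). The samples came from untreated male Sprague Dawley rats of 4 weeks of age. They comprised whole hippocampus, the somata layer (cell bodies) and the neuropil layer (dendrites, axons and glia) of hippocampal area CA1, cut apart by hand, and 3 fractions of whole brain (ribosome-free RNA, monosomes and polysomes), each with 2 replicate libraries and 12 libraries in all.

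A eukaryotic mRNA usually carries 1 annotated coding sequence, but ribosomes can also initiate upstream of it, within its span in another frame, or on sequence retained from an intron. An ORF in the 5′UTR is met by the scanning ribosome before the main coding sequence, and such upstream ORFs are known for lowering translation of the sequence behind them. Polysome profiling separates mRNAs by the number of ribosomes they carry, so that RNA without ribosomes, RNA with a single ribosome and RNA with several are sequenced apart. The level of an isoform in a fraction counts the whole RNA and does not show which of its ORFs was occupied.

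The values are TPM (transcript abundance as a share of each library, corrected for isoform length), which permits levels of different genes to be compared within a library. The authors divided reads among isoforms with RSEM, so isoforms of one gene compete for shared reads and a value of 0 is an estimate. TPM keep no read depth, which is therefore unknown, and 27.7% to 38.5% of all isoforms were listed at 0 in a library. Over isoforms of at least 50 TPM, log2 differences between the replicates had an SD of 0.26 to 0.35 in the fractions and somata, 0.50 in hippocampus and 0.69 in neuropil, so that neuropil values are the least precise. No source states whether replicates came from separate animals, and p-values measure only the spread between these libraries. In bulk tissue, fewer cells of a type and less RNA per cell cannot be told apart.

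**Figure D1:**
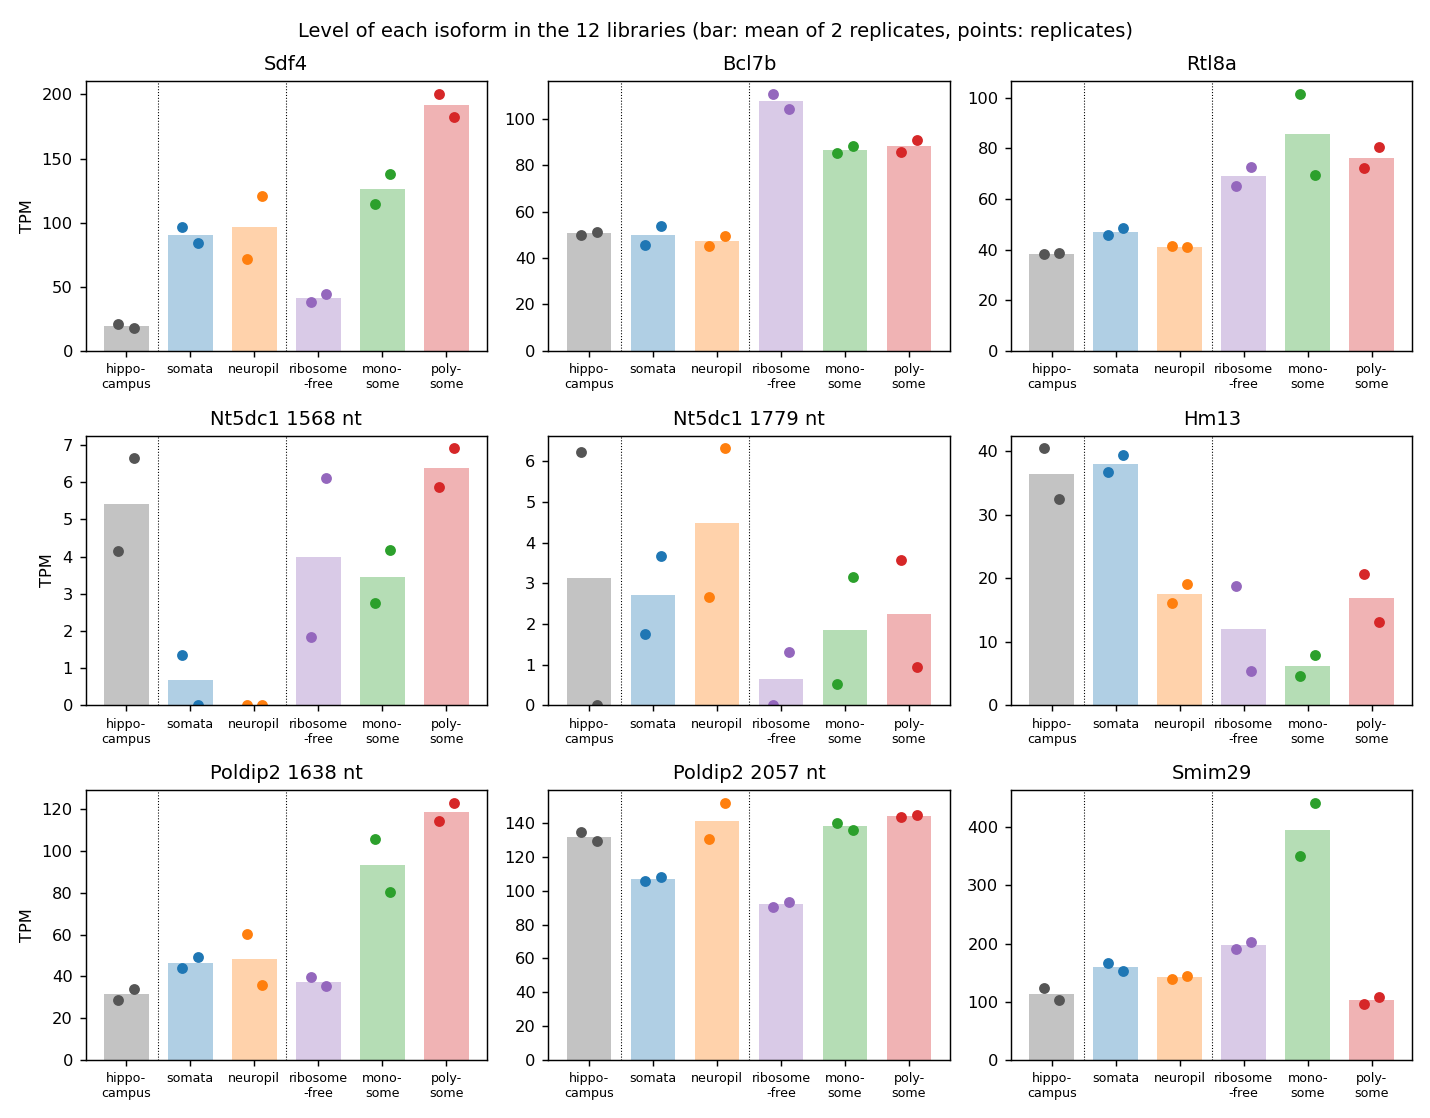
TPM of each of the 9 isoforms (vertical axes, linear and starting at 0, with its own scale for each isoform) in the 6 groups; bars are means and points the 2 replicate libraries, and dotted lines separate the 3 tables. The isoforms of Sdf4 and Poldip2 (1638 nt) were lowest in the ribosome-free fraction among the fractions, Smim29 was highest in the monosome fraction, and both Nt5dc1 isoforms stayed under 7 TPM.

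In whole hippocampus, the 2057-nt isoform of Poldip2 had the highest level of the 9 (132 ± 3.7 TPM, SD, n = 2), followed by Smim29 (113 ± 14.0) and Bcl7b (50.6 ± 1.1). Rtl8a (38.4 ± 0.33), Hm13 (36.4 ± 5.7) and the 1638-nt isoform of Poldip2 (31.4 ± 3.9) came next, and neighbours among these had overlapping replicates. Sdf4 followed at 19.5 ± 2.2 TPM. The lowest were the Nt5dc1 isoforms of 1568 nt (5.40 ± 1.8) and 1779 nt (3.12 ± 4.4), whose replicates overlapped. Lengths are those of the full-length reads. Hippocampus was quantified in a table of its own, and its levels were not tested against the other groups.

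The order of the 9 isoforms differed among the fractions. Smim29 was the highest in the ribosome-free (197 ± 7.4 TPM) and monosome (396 ± 65.3) fractions, whereas in the polysome fraction it stood behind Sdf4 (192 ± 12.6) and both isoforms of Poldip2. Bcl7b held the second place in the ribosome-free fraction (108 ± 4.5) and the fifth in the polysome fraction (88.1 ± 3.6). In the polysome fraction, every isoform stood clear of its neighbour in the order, with no overlap between their 2 replicates. Hm13 and the Nt5dc1 isoforms held the last 3 places in every fraction, at 0.65 to 16.9 TPM on average.

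Between the polysome and ribosome-free fractions, isoforms of Sdf4 and Poldip2 were higher on polysomes and that of Smim29 was lower. In limma on log2(TPM + 1) over all isoforms of the table (Benjamini-Hochberg adjusted p under 0.05), 3 of the 9 isoforms were higher and 1 was lower, against 34.1% higher and 11.1% lower among the 19667 isoforms tested. Between the monosome and ribosome-free fractions, 4 of 9 were higher and 0 lower, against 32.1% and 7.30% (5 of 9 had an unadjusted p under 0.05 in either direction, against 49.5%). Between polysome and monosome fractions, 1 was higher and 1 lower, against 11.6% and 11.6%. These shares are near those of all isoforms. The study chose the listed isoforms among those it predicted to be translated, with levels in these same libraries as input, so their direction towards ribosome-bound RNA is not independent evidence.

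The median log2 fold change of all isoforms was itself 0.63 for polysome and 0.69 for monosome against ribosome-free RNA, and -0.02 for polysome against monosome, so changes are given here also relative to it. Among the 9 isoforms the medians were 0.64, 0.58 and 0.24. Scaling the libraries moved the split of calls for polysome against ribosome-free RNA to 20.5% higher and 17.6% lower of all isoforms (quantile normalization) or 21.2% and 17.8% (median ratios), and 2 of the 9 isoforms were then higher and 2 lower under either scaling. For monosome against ribosome-free RNA the split became 16.1% and 13.7%, with 3 of 9 higher and 1 lower, or 15.4% and 15.0%, with 1 higher and 1 lower. The summed TPM of the marker isoforms of neurons (8 genes) was 157 to 166 in ribosome-free, 349 to 397 in monosome and 347 to 355 in polysome libraries. Those of astrocytes, microglia, endothelial cells and oligodendrocytes were likewise lowest in the ribosome-free fraction. Single marker isoforms did not all follow their sum, such as Sv2a (12.2, 11.9 and 5.29 TPM on average in the same order). The study separated the 3 fractions from whole-brain lysate on gradients, so these sums describe marker RNA in a fraction and not its cells. The part of the differences in marker sums in the results for the 9 isoforms was not tested.

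**Figure D2:**
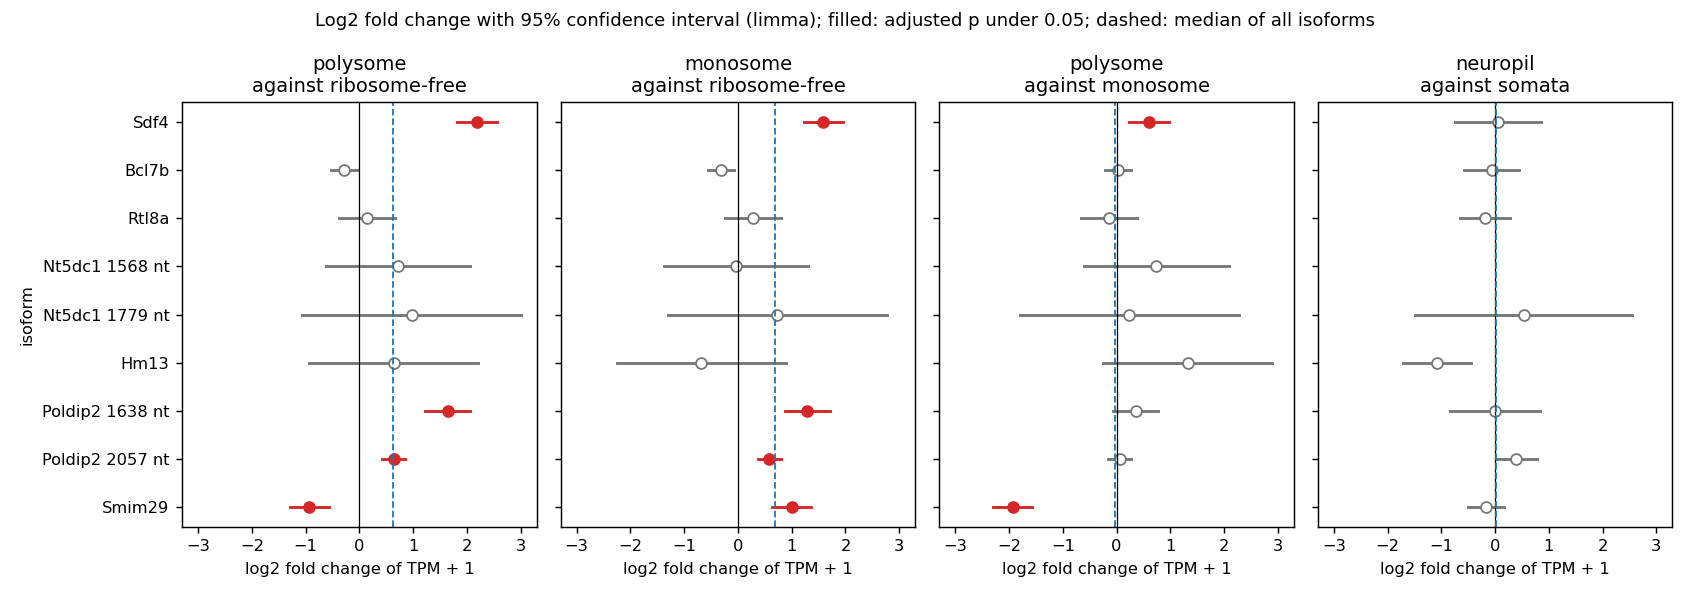
Log2 fold change of TPM + 1 (horizontal axes) of each isoform in 4 comparisons, with 95% confidence intervals from limma; filled red points passed an adjusted p of 0.05, and the dashed line is the median of all isoforms. Sdf4 and Poldip2 (1638 nt) lie to the right of the dashed line in both comparisons with ribosome-free RNA, Poldip2 (2057 nt) lies close to it, and no isoform passed between neuropil and somata.

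Among the isoforms with an ORF in the 5′UTR, that of Sdf4 was the one to pass the test in the comparisons between fractions. Sdf4 encodes a calcium-binding protein of the Golgi lumen that takes part in sorting secreted proteins. Its isoform of 1277 nt (RNN_LD4.103_ccs_78803_1277_0_1277_1277_SUB0_pTNp_36) was at 38.0 and 44.6 TPM in the ribosome-free, 115 and 138 in the monosome, and 200.5 and 183 in the polysome libraries. Each step upwards was free of overlap, and ribosome-free RNA was the lowest of the 3 fractions in both replicates. The log2 fold change was 2.19 ± 0.14 (SE) for polysome against ribosome-free RNA (limma, adjusted p = 0.00044), 1.56 above the median of all isoforms. It was 1.59 ± 0.14 for monosome against ribosome-free RNA (limma, adjusted p = 0.00166). Both calls held under every alternative setting and with any library left out. For polysome against monosome it was 0.60 ± 0.14 (limma, adjusted p = 0.0390), and this call was lost when any one of the 6 libraries was left out and under quantile normalization, a constant prior variance, the replicate block or a fit of the 2 fractions alone. Its value stayed at 0.60 under the last 3 of these and was 0.41 under quantile normalization, with adjusted p from 0.0286 to 0.192 over the alternatives in limma.

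In the tissue libraries, the Sdf4 isoform was at 21.1 and 17.9 TPM in hippocampus, 96.2 and 84.0 in somata, and 71.8 and 121 in neuropil. All 4 libraries of the CA1 layers were above both hippocampus libraries, but they belong to different tables and the difference was not tested. In rank, 74.3% and 69.3% of all isoforms were below it in the hippocampus libraries, and 90.2% to 94.4% in the CA1 layers. Somata and neuropil overlapped, with the neuropil replicates on either side of the somata values, and their log2 difference was 0.05 (95% confidence interval -0.75 to 0.85).

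Bcl7b, which encodes a subunit of the BAF (SWI/SNF) chromatin remodelling complexes, had its highest level in the ribosome-free fraction. Its isoform of 1685 nt (RSN_LD4.107_ccs_28650_1685_0_1685_1685_SUB0_pNAp_36) was at 111 and 104 TPM in the ribosome-free, 85.2 and 88.1 in the monosome, and 85.5 and 90.7 in the polysome libraries. Both ribosome-free libraries were above the other 4, whereas monosome and polysome values overlapped. The log2 fold change was -0.28 ± 0.09 (SE) for polysome against ribosome-free RNA (limma, adjusted p = 0.0604) and -0.31 ± 0.09 for monosome against ribosome-free RNA (limma, adjusted p = 0.0533), and neither passed. Relative to the median of all isoforms these were -0.92 and -1.0. Under quantile normalization the first became -0.95 (limma, adjusted p = 0.00186, with 0.00186 to 0.223 over the alternatives) and the second -0.78 (limma, adjusted p = 0.00500, with 0.00286 to 0.204), so that Bcl7b was called lower in both under scaling. Without the second ribosome-free library they also passed (limma, adjusted p = 0.0467 and 0.0453).

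The level of Bcl7b varied little in tissue. It was 49.8 and 51.3 TPM in hippocampus, 45.6 and 53.8 in somata, and 45.3 and 49.4 in neuropil. The compartments overlapped, and their log2 difference was -0.06 (95% confidence interval -0.57 to 0.44). In rank, 84.7% to 86.9% of all isoforms were below Bcl7b in the tissue libraries, and 96.2% and 95.9% in the ribosome-free libraries.

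Rtl8a is a retrotransposon Gag-like gene, a coding gene derived from a retrotransposon. Its isoform of 1401 nt (RSN_LD4.108_ccs_95251_1401_0_1401_1401_SUB0_pTNu_32) was at 65.1 and 72.8 TPM in the ribosome-free, 102 and 69.5 in the monosome, and 72.3 and 80.4 in the polysome libraries. All 3 fractions overlapped, and the first monosome library was the highest. The log2 fold change was 0.15 for polysome against ribosome-free RNA (95% confidence interval -0.37 to 0.66), and it turned to -0.56 and -0.51 under the 2 scalings, none of which passed. In tissue, the isoform was at 38.2 and 38.7 TPM in hippocampus, 45.6 and 48.4 in somata, and 41.4 and 41.0 in neuropil. Neuropil values were below both somata values, with a log2 difference of -0.19 (95% confidence interval -0.65 to 0.28) that did not pass.

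Nt5dc1, named for its 5′-nucleotidase domain, was listed with 2 isoforms, both low. The isoform of 1568 nt (RSN_LD4.108_ccs_47991_1568_0_1568_1568_SUB0_pNAp_36) was at 1.84 and 6.11 TPM in the ribosome-free, 2.75 and 4.17 in the monosome, and 5.87 and 6.91 in the polysome libraries. That of 1779 nt (RSN_LD4.109_ccs_99688_1779_0_1779_1779_SUB0_uNAp_32) was at 0 and 1.30, 0.53 and 3.15, and 3.57 and 0.94 TPM in the same order. Only the 1568-nt isoform in polysome against monosome RNA was free of overlap, and no comparison of either isoform passed. The confidence intervals were wide, for example -0.63 to 2.05 for the log2 fold change of the 1568-nt isoform between polysome and ribosome-free RNA, and -1.06 to 3.01 for the 1779-nt isoform.

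In tissue, the 1568-nt isoform of Nt5dc1 was at 4.15 and 6.65 TPM in hippocampus, 1.36 and 0 in somata, and was listed at 0 in both neuropil libraries. The 1779-nt isoform was at 6.24 and 0 TPM in hippocampus, 1.75 and 3.68 in somata, and 2.66 and 6.32 in neuropil. The 1568-nt isoform did not reach a mean of 1 TPM over the CA1 libraries and was not tested there, which left 8 of the 9 isoforms. The 1779-nt isoform overlapped between the layers. The span of the gene overlaps that of Col10a1 in the current rat annotation. Strands and exons were not compared here, so whether reads were shared between the 2 genes is unknown.

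Hm13, under whose name the study lists an isoform with an ORF in an intron, encodes signal peptide peptidase, an intramembrane protease of the endoplasmic reticulum. The isoform of 776 nt (RSN_LD1.107_sub_93914_1420_0_776_776_SUB0_uTNp_22) was at 40.4 and 32.4 TPM in hippocampus, 36.8 and 39.3 in somata, and 16.0 and 19.1 in neuropil. Both neuropil values were below both somata values. The log2 difference was -1.08 (95% confidence interval -1.71 to -0.44), the largest in size between the layers among the 8 isoforms tested, but it did not pass (limma, adjusted p = 0.210). In the fractions it was at 18.8 and 5.37 TPM in ribosome-free, 4.54 and 7.86 in monosome, and 20.7 and 13.1 in polysome libraries. Polysome values were above both monosome values, with a log2 fold change of 1.32 (95% confidence interval -0.25 to 2.89) that did not pass. The ribosome-free replicates differed 3.49-fold and overlapped both other fractions. Mcts2 lies within Hm13 in the current annotation, so the gene of origin of this short isoform and of its reads is uncertain. The paper reports that mouse and human homologs of intronic ORFs with peptide support were often annotated as genes of their own. Whether the ORF listed for Hm13 is among these was not examined.

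Among the isoforms with an ORF in a different frame, the 2057-nt isoform of Poldip2 and that of Smim29 had some of the highest levels of the 9. Poldip2 encodes a partner of DNA polymerase delta and of the replication clamp PCNA that is also found in mitochondria. Its isoform of 1638 nt (RSN_LD2.110_sub_31834_2199_0_1638_1638_SUB0_pTNp_32) was at 39.5 and 35.1 TPM in the ribosome-free, 106 and 80.6 in the monosome, and 115 and 123 in the polysome libraries. Both ribosome-bound fractions were above ribosome-free RNA, and the polysome values were above the monosome values. The log2 fold change was 1.65 ± 0.16 (SE) for polysome against ribosome-free RNA (limma, adjusted p = 0.00125), 1.02 above the median of all isoforms, and this call held in every alternative. For monosome against ribosome-free RNA it was 1.29 ± 0.16 (limma, adjusted p = 0.00399), but the call was lost with median ratios, with adjusted p from 0.00287 to 0.0533 over the alternatives in limma. For polysome against monosome it was 0.36 (95% confidence interval -0.06 to 0.78) and did not pass.

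The isoform of Poldip2 of 2057 nt (RNN_LD3.110_ccs_74654_2057_0_2057_2057_SUB0_pTNp_30) was at 90.7 and 93.4 TPM in the ribosome-free, 140.3 and 136 in the monosome, and 144 and 145 in the polysome libraries. Ribosome-free values were below the other 4, and the replicates were close to each other. The log2 fold change was 0.64 ± 0.08 (SE) for polysome (limma, adjusted p = 0.00292) and 0.58 ± 0.08 for monosome against ribosome-free RNA (limma, adjusted p = 0.00575). Relative to the median of all isoforms these were 0.01 and -0.11. Under the scalings the first became -0.01 and -0.02 and the second 0.12 and -0.12, and both calls were lost, with adjusted p up to 0.910 and 0.319 in limma. A gene named as a Poldip2 pseudogene is annotated in the rat. Its sequence was not compared here, so whether reads were shared with it is unknown.

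**Figure D3:**
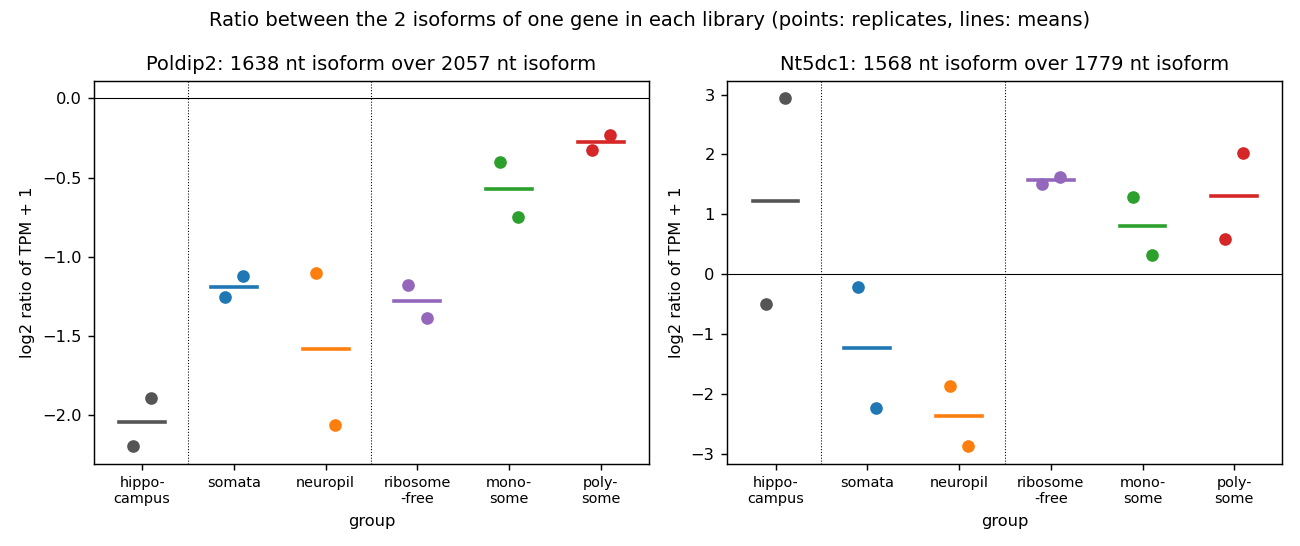
Log2 ratio of TPM + 1 between the 2 isoforms of Poldip2 (left) and of Nt5dc1 (right) in each library, with points for replicates and lines for group means. For Poldip2 the ratio was higher in every ribosome-bound library than in the ribosome-free libraries; for Nt5dc1 the replicates were far apart within most groups, as in hippocampus (-0.49 and 2.94).

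The 2 isoforms of Poldip2 differed from each other across the fractions. The 1638-nt isoform took 30.4% and 27.3% of their summed TPM in the ribosome-free, 43.0% and 37.2% in the monosome, and 44.4% and 45.9% in the polysome libraries. Its share was higher in each ribosome-bound library than in either ribosome-free library. The mean log2 ratio of the 1638-nt over the 2057-nt isoform was -1.28 ± 0.15 (SD, n = 2) in ribosome-free, -0.57 ± 0.24 in monosome and -0.28 ± 0.06 in polysome libraries. A scaling factor common to a library cancels in this ratio, apart from the pseudocount. The difference was 1.0 for polysome against ribosome-free, 0.71 for monosome against ribosome-free and 0.30 for polysome against monosome, without overlap in each. With 2 against 2 libraries the exact two-sided permutation test cannot go below p = 0.333, which each of the 3 comparisons gave (adjusted p = 0.5 over 6 comparisons of the 2 genes).

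In hippocampus, the 2057-nt isoform of Poldip2 was at 135 and 129 TPM and the 1638-nt isoform at 28.6 and 34.1 TPM. The shorter isoform thus took 17.5% and 20.9%, against 29.3% and 31.2% in somata and 31.6% and 19.0% in neuropil. In the CA1 layers, the longer isoform was at 106 and 108 TPM in somata and 131 and 152 in neuropil, and the shorter one at 43.9 and 49.2 in somata and 60.4 and 35.7 in neuropil. Neuropil was above somata for the longer isoform and overlapped for the shorter. The log2 ratio differed by -0.39 between neuropil and somata, with overlap (exact permutation p = 1), and by -0.87 or 0.085 without the first or the second neuropil library.

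For Nt5dc1, the isoform of 1568 nt was above that of 1779 nt in all 6 fraction libraries and below it in all 4 CA1 libraries, while the hippocampus libraries went both ways. These tables were made separately and the contrast was not tested. Within the fractions, the log2 ratio differed by -0.76 for monosome against ribosome-free RNA without overlap (exact permutation p = 0.333, adjusted p = 0.5), and the other 2 pairs of fractions overlapped. Between neuropil and somata it differed by -1.15 with overlap (exact permutation p = 0.667), and by -0.15 or -2.15 without the first or the second somata library. At such levels 1 isoform was listed at 0 in 5 of the 12 libraries, and these ratios depend on the pseudocount.

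Smim29, which encodes a small integral membrane protein, was highest in the monosome fraction. The isoform of 1006 nt (RNN_LD3.110_ccs_52490_1006_0_1006_1006_SUB0_pTNp_144) was at 191 and 202 TPM in the ribosome-free, 349.8 and 442 in the monosome, and 96.7 and 109 in the polysome libraries. All 3 fractions were apart, with polysome values the lowest. The log2 fold change was -1.93 ± 0.14 (SE) for polysome against monosome (limma, adjusted p = 0.00195) and -0.93 ± 0.14 for polysome against ribosome-free RNA (limma, adjusted p = 0.00484). Both calls held under every alternative, with any library left out, and relative to the median of all isoforms the second was -1.56. For monosome against ribosome-free RNA it was 1.0 ± 0.14 (limma, adjusted p = 0.00548), 0.30 above the median, and the call was lost under median ratios, with adjusted p from 0.00399 to 0.180 over the alternatives in limma.

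In tissue, Smim29 was at 123 and 103 TPM in hippocampus, 166 and 154 in somata, and 139.6 and 144 in neuropil. Neuropil values were below both somata values, and the log2 difference was -0.17 (95% confidence interval -0.50 to 0.16). This difference did not pass.

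**Figure D4:**
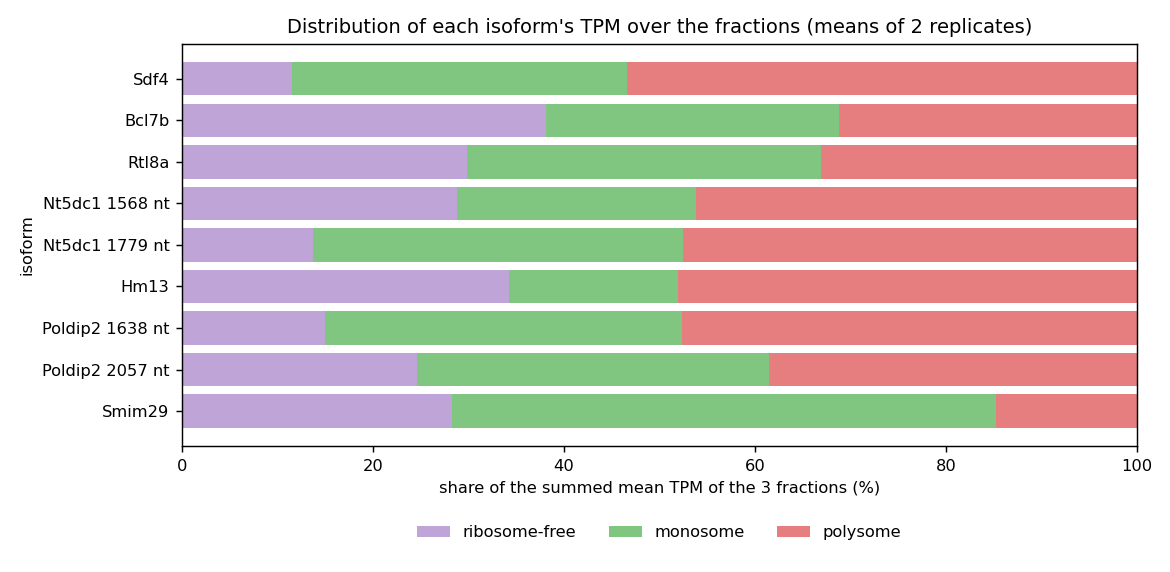
Share of the summed mean TPM of the 3 fractions (horizontal axis, percent) found in each fraction, for each isoform; each library is scaled to the same total, so shares are of TPM and not of RNA amount. Sdf4 had 53.3% in the polysome fraction and Smim29 57.0% in the monosome fraction. Bcl7b was the isoform with its highest share, 38.1%, in ribosome-free RNA. No normalization beyond TPM entered these shares.

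As a share of the summed mean TPM over the 3 fractions, polysome RNA held the most of the isoform for Sdf4 (53.3%), Hm13 (48.1%), both isoforms of Poldip2 (47.7% and 38.5%) and both of Nt5dc1 (46.2% and 47.5%). Monosome RNA held the most of Smim29 (57.0%) and Rtl8a (37.0%), and ribosome-free RNA the most of Bcl7b (38.1%). The leading fraction of 3 isoforms turned when 1 library was left out. Ribosome-free RNA led for Hm13 without the second ribosome-free library (log2 fold change of polysome against ribosome-free -0.17), monosome RNA for Nt5dc1 (1779 nt) without the first monosome or the first polysome library (polysome against monosome -0.48 and -0.38), and polysome RNA for Rtl8a without the first monosome library (0.13). Scaling also turned the order. Under quantile normalization and median ratios, Rtl8a was lower in polysome (-0.56 and -0.51) and monosome (-0.22 and -0.42) than in ribosome-free RNA. Poldip2 (2057 nt) was lower in polysome than in monosome RNA under quantile normalization (-0.13). With median ratios it was lower in polysome (-0.02) and monosome (-0.12) than in ribosome-free RNA. The sections of the list did not share one order of fractions. The 5 isoforms with an ORF in the 5′UTR included the highest polysome share, that of Sdf4, and the highest ribosome-free share, that of Bcl7b. The 3 with an ORF in a different frame included the lowest polysome share, 14.8% for Smim29.

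Between neuropil and somata, none of the isoforms passed. In limma, 0 of the 8 isoforms tested had an adjusted p under 0.05, against 0.00% of the 20393 isoforms tested. The smallest adjusted p of any isoform was 0.179 in limma, so this test called no isoform at all. The study compared the layers in another way, among isoforms of neuronal genes with several isoforms, and reported isoforms enriched in each layer. At an unadjusted p under 0.05 there were 2 of 8, Hm13 (lower in neuropil) and the 2057-nt isoform of Poldip2 (0.39 higher, 95% confidence interval 0.01 to 0.78), against 14.8% of all isoforms. The layers did not overlap in 4 of 8, with Poldip2 (2057 nt) above and Hm13, Rtl8a and Smim29 below in neuropil, against 44.9% of all isoforms. The median log2 difference was -0.03 over the 8 isoforms and 0.01 over all isoforms.

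The cell type markers of the layers differed beside these values. The summed TPM of neuronal marker isoforms was 572 to 614 in somata and 306 to 476 in neuropil. For 1 of 8 genes (Syn2), the listed isoform was at 0 in both neuropil libraries. The neuronal marker isoforms did not all go one way, and 6 of 10 had a lower mean in neuropil. Among these were those with the highest levels (Chgb at 256 in somata and 136 in neuropil, Ncdn at 154 and 132, Nptx2 at 126 and 70.2). The other 4 had a higher mean in neuropil, such as Sv2a (5.68 and 9.27) and Gria4 (3.85 and 8.38). Astrocyte marker isoforms summed to 424 to 503 in somata and 730 to 958 in neuropil, and those of microglia to 77.5 to 79.3 and 161 to 182. Endothelial ones summed to 117 to 122 and 239 to 252, and oligodendrocyte ones to 171 to 172 and 264 to 268. These isoforms were not uniform either. The mean was higher in neuropil for 5 and lower for 1 of 7 in astrocytes, and higher for 1 of 2 in microglia. It was higher for 4 and lower for 1 of 6 in endothelial cells, and higher for 4 and lower for 2 of 6 in oligodendrocytes. In both layers, the listed isoform was at 0 for 1 of 7 astrocyte (Slc7a10), 1 of 2 microglia (Csf1r) and 1 of 4 endothelial (Tie1) marker genes. Other isoforms of these genes were not looked up, so such a 0 does not mean that the gene was absent. The part of the cell makeup in the values of Hm13 and Poldip2 was not tested.

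The list holds 18 other isoforms of 12 genes, and 17 of these isoforms passed the filter on low levels. Isoforms of one gene compete for shared reads and are not independent. Counts of the 17 are given beside those of the 9 isoforms. For polysome against ribosome-free RNA, 12 of those 17 were higher and 1 was lower with a median log2 fold change of 1.22, beside 3 and 1 of 9 with 0.64 and 34.1% and 11.1% of all isoforms. Under quantile normalization and median ratios, 8 of the 17 were higher and 1 lower, with medians of 0.71 and 0.61. For monosome against ribosome-free RNA, 9 were higher and 1 lower with a median of 1.02, beside 4 and 0 with 0.58 and 32.1% and 7.30% of all isoforms. Under the same scalings, 5 were higher and 1 lower (median 0.46), or 6 and 2 (median 0.33). For polysome against monosome, 4 were higher and 3 lower with a median of 0.13, beside 1 and 1 with 0.24 and 11.6% each way of all isoforms. Between neuropil and somata, 0 of 17 passed in limma (4 at an unadjusted p under 0.05), with a median of -0.28 beside -0.03. These counts are descriptions, and the difference between the groups of isoforms was not tested. The other isoforms were also chosen among those predicted to be translated with these fraction libraries as input.

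By the root mean square difference of log2(TPM + 1), centred within each table over the 10 libraries of the CA1 layers and fractions, an isoform of Cpe had the pattern closest to Poldip2 (2057 nt), at 0.09 against a median of 0.48 over the 210 candidates with a gene name. For Bcl7b it was Naxe (0.12 against 0.69), for Sdf4 Plbd2 (0.18 against 0.59), for Rtl8a Krtcap2 (0.19 against 0.60) and for Poldip2 (1638 nt) Bsg (0.21 against 0.54). Btbd6 was closest to Smim29 (0.28 against 0.88), with 85.1, 164 and 70.0 TPM on average in the ribosome-free, monosome and polysome fractions. The match was looser for both Nt5dc1 isoforms, 1568 nt with Tiprl (0.37 against 0.74) and 1779 nt with Shisa4 (0.44 against 0.75), and for Hm13 with Ckmt1 (0.55 against 0.94). Candidates came only from this list and from the study's list of ORFs that gain or lose a signal peptide. They do not represent all isoforms, and a kind of gene shared by the matches can come from those lists. The smallest of many differences lies below their median by construction.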

How the data were processed

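RNA-seq libraries of hippocampus, CA1 somata, CA1 neuropil and the 3 fractions were analysed, 2 per group, and the 6 ribosome footprinting samples are not analysed here. The authors removed adapters with flexbar, mapped reads to the FLTs with Bowtie 2 and deposited TPM per isoform estimated with RSEM, written to 2 decimals in 3 tables with replicates apart. The submitters' processing notes also name TopHat2 and rn6; the RSEM version is not given in the sources used here. The methods state single-end reads for hippocampus but RSEM arguments for paired ends, and a total RNA kit for the fractions where the labels state polyA RNA. Reads shared by isoforms are divided by a model, which can set an isoform to 0.

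From the deposited TPM, log2(TPM + 1) was tested two-sided with limma 3.58.1 in R 4.3.3 (eBayes with a trend), for isoforms whose mean reached 1 TPM, within a table and adjusted over all of it. The 6 fraction libraries shared a fit, and the 4 CA1 libraries another. limma was also tested on simulated data. Ratios between isoforms of a gene were compared by exact permutation. Python 3.11.15, pandas 2.3.3, numpy 2.4.6, scipy 1.17.1 and matplotlib 3.10.9 were used. All listed isoforms of the 7 genes are named, with the closest pattern for each among isoforms of at least 10 TPM with a gene name. Names and markers came from the study's list of ORFs that gain or lose a signal peptide, of whose 524 entries 516 isoforms were matched. The members and lists were chosen with earlier results of these data known. Alternatives changed the pseudocount, the filter, the scaling, the prior variance, a replicate block, the libraries in the fit and left out each library. Gene overlaps were taken from RefSeq (GRCr8), without coordinates, since the files use rn6. No isoform or ORF sequence was used here.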

Additional observations from a re-analysis of the deposited data

How the results depend on the processing

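Of 494 values of single isoforms under the alternatives, 447 kept their direction and side of the threshold, 10 newly passed with the same sign, 24 changed sign and 16 no longer passed, 3 of which also changed sign. Those 3 are Poldip2 (2057 nt) against ribosome-free RNA under scaling. No other call changed sign within its own comparison. Many of the 494 values could not change direction. The filters, a constant prior variance, the replicate block, a fit of the 2 fractions alone and leaving out a library of the third fraction keep the log2 fold change by design. Between neuropil and somata, no isoform of the series passed under any setting. The count of 447 is therefore no measure of stability. For polysome against ribosome-free RNA, the isoforms called lower became 2, with Bcl7b, under a pseudocount of 0.1, a mean of at least 5 TPM, quantile normalization and median ratios (1 to 2 with a library left out). For polysome against monosome, the isoforms called higher became 0 under quantile normalization, a constant prior variance, the replicate block and a fit of the 2 fractions alone (0 to 0 with a library left out). For monosome against ribosome-free RNA, 1 was higher under median ratios, and 1 was lower under a pseudocount of 0.1, a mean of at least 5 TPM and both scalings (0 to 1 with a library left out). With a pseudocount of 0.1, the difference in the Nt5dc1 log2 ratio became -1.49 (polysome) and -1.93 (monosome) against ribosome-free RNA, and -2.60 between neuropil and somata. Leaving out a monosome library put the Poldip2 difference between polysome and monosome at 0.12 or 0.47.

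Log2 fold changes that changed sign were these, with the range over libraries left out in parentheses. For polysome against ribosome-free RNA, Rtl8a was -0.56 (quantile normalization) and -0.51 (median ratios), Poldip2 (2057 nt) -0.014 and -0.018, and Hm13 moved with a library left out (-0.17 to 1.46, lowest without the second ribosome-free one). For polysome against monosome, Bcl7b was -0.17 under quantile normalization (-0.018 to 0.065) and Poldip2 (2057 nt) -0.13, while Nt5dc1 (1779 nt) was -0.48 and -0.38 without the first monosome or polysome library (-0.48 to 0.96) and Rtl8a 0.13 without the first monosome library (-0.41 to 0.13). For monosome against ribosome-free RNA, Rtl8a was -0.22 (quantile normalization) and -0.42 (median ratios), Poldip2 (2057 nt) -0.12 (median ratios), Nt5dc1 (1568 nt) 0.0073 with a pseudocount of 0.1 (-0.69 to 0.63), and Hm13 0.14 without the first ribosome-free library (-1.50 to 0.14). Between neuropil and somata, without the second somata library Bcl7b was 0.053 (-0.18 to 0.053), Sdf4 -0.044 (-0.32 to 0.42) and Poldip2 (1638 nt) 0.080 (-0.37 to 0.37), the last also 0.0029 with a pseudocount of 5. The cause of these changes was not tested.

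Same-numbered libraries deviated from their group means with correlations of -0.0099 to 0.033 across isoforms. Noise in single isoforms can hide a shared origin, so these values do not decide whether same-numbered libraries were paired. The study itself took ratios between fractions within each replicate. With the replicate block, 3 isoforms were higher and 1 lower for polysome, and 4 and 0 for monosome, against ribosome-free RNA, 0 and 1 for polysome against monosome, and 0 and 0 in neuropil. Depth is unknown, and low isoforms such as those of Nt5dc1 allow no firm statement.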
